A study of Danio rerio with 7 samples.

Results

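Splicing factors and RNA-binding proteins made up 48 of the 4449 genes that the study divides over 8 modules. They were chosen by name, as the module genes whose zebrafish symbol starts, ignoring case, with srsf, srrm, hnrnp, snrp, sf3, sf1, u2af, prpf, rbm, rbfox, celf, mbnl, ddx, dhx, khdrbs, matr3, luc7 or tra2. A symbol was at hand for 3651 of the 4449 identifiers, so the rule could not reach the other 798. The modules come from heart muscle cells of adult zebrafish carrying nppa:mCitrine, a reporter of a natriuretic peptide gene. Cells were sorted as single border zone cardiomyocytes 7 days after cryoinjury. The plates fall into 4 from fish mutant for hmga1a, the gene of a DNA-binding high mobility group protein, and 3 from wildtype fish. The reporter and the injury are common to both groups. The module lists hold identifiers and no values, so a gene's place is the measurement here. Neither depth nor replicate error is known from the lists, and nothing can be said of which genotype has more of a transcript. What it means for 2 genes to share a module is not stated in these sources.

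Before a messenger RNA leaves the nucleus, its introns are cut out by the spliceosome, a machine of small nuclear RNAs and proteins that assembles anew on each intron. SR proteins, named for their stretches of serine and arginine, mostly promote the use of nearby splice sites, while many hnRNPs coat nascent RNA and often oppose them. Helicases of the DEAD-box and DEAH-box families remodel RNA and protein contacts at each step, and also serve export, translation and ribosome assembly. In heart muscle, regulators of the RBM, MBNL, CELF and RBFOX families set which exons of sarcomere and calcium-handling transcripts are kept as the heart matures, as known mainly from mouse. The roles named below are those of the human and mouse proteins.

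The 48 genes lay in 7 of the 8 modules. Module 1 and module 5 held 10 each, module 4 held 9, modules 2 and 6 held 8 each, module 8 held 2, module 3 held 1 and module 7 held none. Set against module size, the genes were densest in modules 5, 4 and 6, at 2.48, 2.28 and 2.16 for every 100 named genes of the module. The density was 1.56 in module 2, 1.53 in module 8, 0.820 in module 1 and 0.353 in module 3. Module 5 is also where hmga1a, the mutated gene, and nppa, the gene behind the reporter, lay.

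As shares, 20.8% of the splicing and RNA-binding genes were in module 5 (exact 95% binomial interval 10.5% to 35.0%), beside 11% of all named module genes. Module 4 held 18.8% of the 48 (8.95% to 32.6%) and 10.8% of all named genes. With other RNA-processing genes added, from lists that are not complete, its share was 12.1% (11 of 91). Module 6 held 16.7% of the 48 (7.48% to 30.2%) and 10.2% of all named genes. Module 1, which has the most genes, held 20.8% of the 48 (10.5% to 35.0%) and 33.4% of all named genes. Module 2 held 16.7% of the 48 and 14% of all named genes, and module 8 held 4.17% of the 48 and 3.59% of all named genes, so both were near the share of all genes. Module 3 held 2.08% of the 48 and 7.75% of all named genes. In module 7, which holds 9.23% of all named genes, the count was 0 of 48. The exact interval for this count of 0 runs up to 7.40%, and a limit of 3 counts gives 6.25%. In every other module the share of all named genes lay within the exact interval of the 48, modules 4, 5 and 6 included. Modules 4, 5 and 6 together, a grouping made after the counts were seen, held 27 of the 48 (56.2%), beside 32.0% of all named genes. Intervals and the limit for a count of 0 cover counting error only, and placement was described without a test because the genes were chosen with earlier results known.

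**Figure D1:**
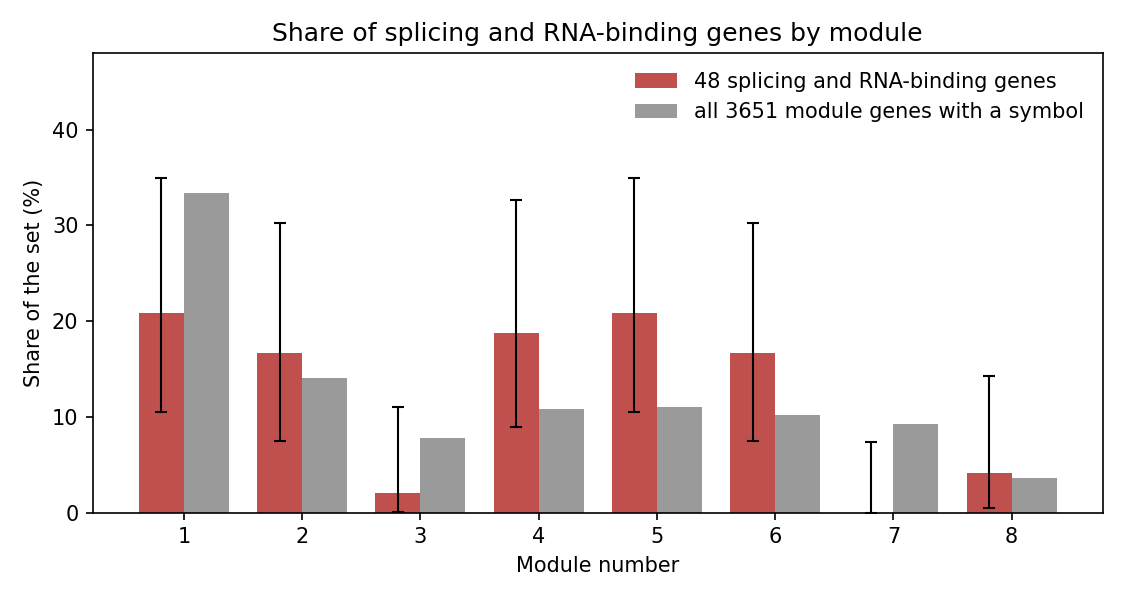
Share (%) of the 48 splicing and RNA-binding genes (red, left) and of all 3651 module genes with a symbol (grey, right) in each module; error bars are exact 95% binomial intervals of the 48. The red bars are higher than the grey ones in modules 2, 4, 5, 6 and 8, the red bar is lower in modules 1 and 3, and module 7 has no red bar.

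Of the 8 spliceosome components placed, 3 lay in module 5. All 3 act in recognising the branch site, the spot within an intron where the lariat forms. They were put together by role and not by name, and the grouping was not fixed before their modules were known. Module 5 holds 11% of all named module genes. SF1 (ENSDARG00000008188), which binds the branch site first, lay there. So did SF3B1 (ENSDARG00000056138), the U2 snRNP protein that clamps the branch site once SF1 has left. SNRPA1 (ENSDARG00000024651), which is stably bound to the U2 RNA, was there too. By name SNRPA1 is a snrp gene, and the other placed snrp gene, SNRPD2, was in module 4. Partners of SF1 and SF3B1 lay elsewhere. U2AF2 (ENSDARG00000011740), which reads the polypyrimidine tract beside the branch site and helps SF1 to bind, was in module 1. SF3B2 (ENSDARG00000018049), a subunit of the same complex as SF3B1, was in module 6, as was the helicase DDX42, which interacts with SF3B1.

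The remaining spliceosome components were PRPF8, the scaffold of the catalytic centre, in module 1, and SNRPD2, a protein of the Sm ring around the small nuclear RNAs, with prpf38b in module 4. The 8 spliceosome components thus used 4 modules, with 3 in module 5, 2 each in modules 1 and 4, and 1 in module 6. They were 8 of 36 such genes in the name table (22.2%), beside 12.5% of all genes of the name table. Those in no module included 10 of the 12 snrp genes, 7 of the 9 sf3 genes and 9 of the 11 prpf genes. The 22.2% holds for the names in the rule only. For other core parts of the spliceosome, from a list that is not complete, the share was 5 of 73 (6.85%). Absence from the modules does not show that a gene was not expressed.

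The 5 SR genes lay in 4 modules. Module 4 held srsf5a (ENSDARG00000029818) and srsf10b (ENSDARG00000086411), the second named after a family member that acts as a repressor when dephosphorylated. SRSF6, a regulator of alternative exons, was in module 1. TRA2A, which binds purine-rich exonic enhancers, was in module 5, and srrm1, a coactivator that bridges SR proteins and the splicing machinery, was in module 2. They were 5 of the 24 SR genes in the name table (20.8%, beside 12.5% of all its genes), and 3 of the 18 srsf genes (16.7%).

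The genes named hnrnp were divided, with 9 genes in 5 modules and at most 2 in each. This spread was not tested against that of all named module genes. Module 2 held HNRNPK, which binds C-rich RNA, and HNRNPD, which binds AU-rich elements and governs mRNA decay. Module 4 held HNRNPU, a nuclear scaffold protein, with hnrnpa0b. Module 6 held hnrnpa0a with hnrnpl2, whose namesake HNRNPL binds CA repeats. Module 8 held hnrnph1, which binds runs of G, and HNRNPA1L2. HNRNPM, which binds GU-rich RNA, lay in module 1. The rbm gene rbmx, an hnRNP by another name, lay in module 5. No gene named hnrnp lay in that module, which holds 11% of all named module genes. Whether 0 of 9 differs from that share was not tested. With 9 of its 24 named genes in a module (37.5%), a larger share of this family was placed than of the helicases, at 7 of 52 (13.5%), a difference that was not tested.

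The RBM genes, 13 in all, lay 4 each in modules 1 and 5, 2 each in modules 2 and 4, and 1 in module 6. Those of module 1 included RBM24 (ENSDARG00000031809), which governs splicing and stability of muscle transcripts, RBM47, a cofactor of RNA editing, and rbm14a, a paraspeckle protein. RBM25, which promotes donor site use through the U1 snRNP, was the other. Module 5 held rbmx, an hnRNP by another name, rbm25a, rbm4.1 and RBMS1. Module 2 held RBM38, which binds transcripts of cell cycle regulators, and RBM39, a partner of U2AF, while RBM27, linked to nuclear RNA decay, was in module 6.

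The 5 genes named celf, mbnl or khdrbs, families of splicing regulators, each lay in a different module, a spread that was not tested. CELF2 was placed in module 1 and CELF4 in module 3. The muscleblind genes were divided, MBNL1 to module 4 and MBNL2 to module 6, and khdrbs1a joined module 5. Of all named module genes, 33.4% lay in module 1, 7.75% in module 3 and 10.8% in module 4. Module 5 held 11% of them and module 6 held 10.2%. MBNL and CELF proteins act in opposition on heart exons in mouse, and khdrbs1a is the zebrafish name of Sam68, which links signalling to splicing. CELF4 was the only one of the 48 genes in module 3. None of the 5 rbfox genes in the name table lay in a module, but neither did most genes of that table, of which 12.5% lay in one.

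The 7 helicases lay in 4 modules. Module 6 held DHX15, which takes the spent spliceosome apart, DDX42, which interacts with SF3B1 in the U2 snRNP, and DDX19A, which strips proteins from mRNA at the nuclear pore. Module 2 held DDX27 and DHX33, both known for ribosomal RNA processing. DDX5, a coregulator of transcription and splicing, was in module 1, and ddx3xa, named after a helicase of translation initiation, in module 5. Module 2 also held matr3l1.1, one of a pair of matrin-3-like genes, while the 2 luc7 genes, like most genes of the name table, lay in no module.

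**Figure D2:**
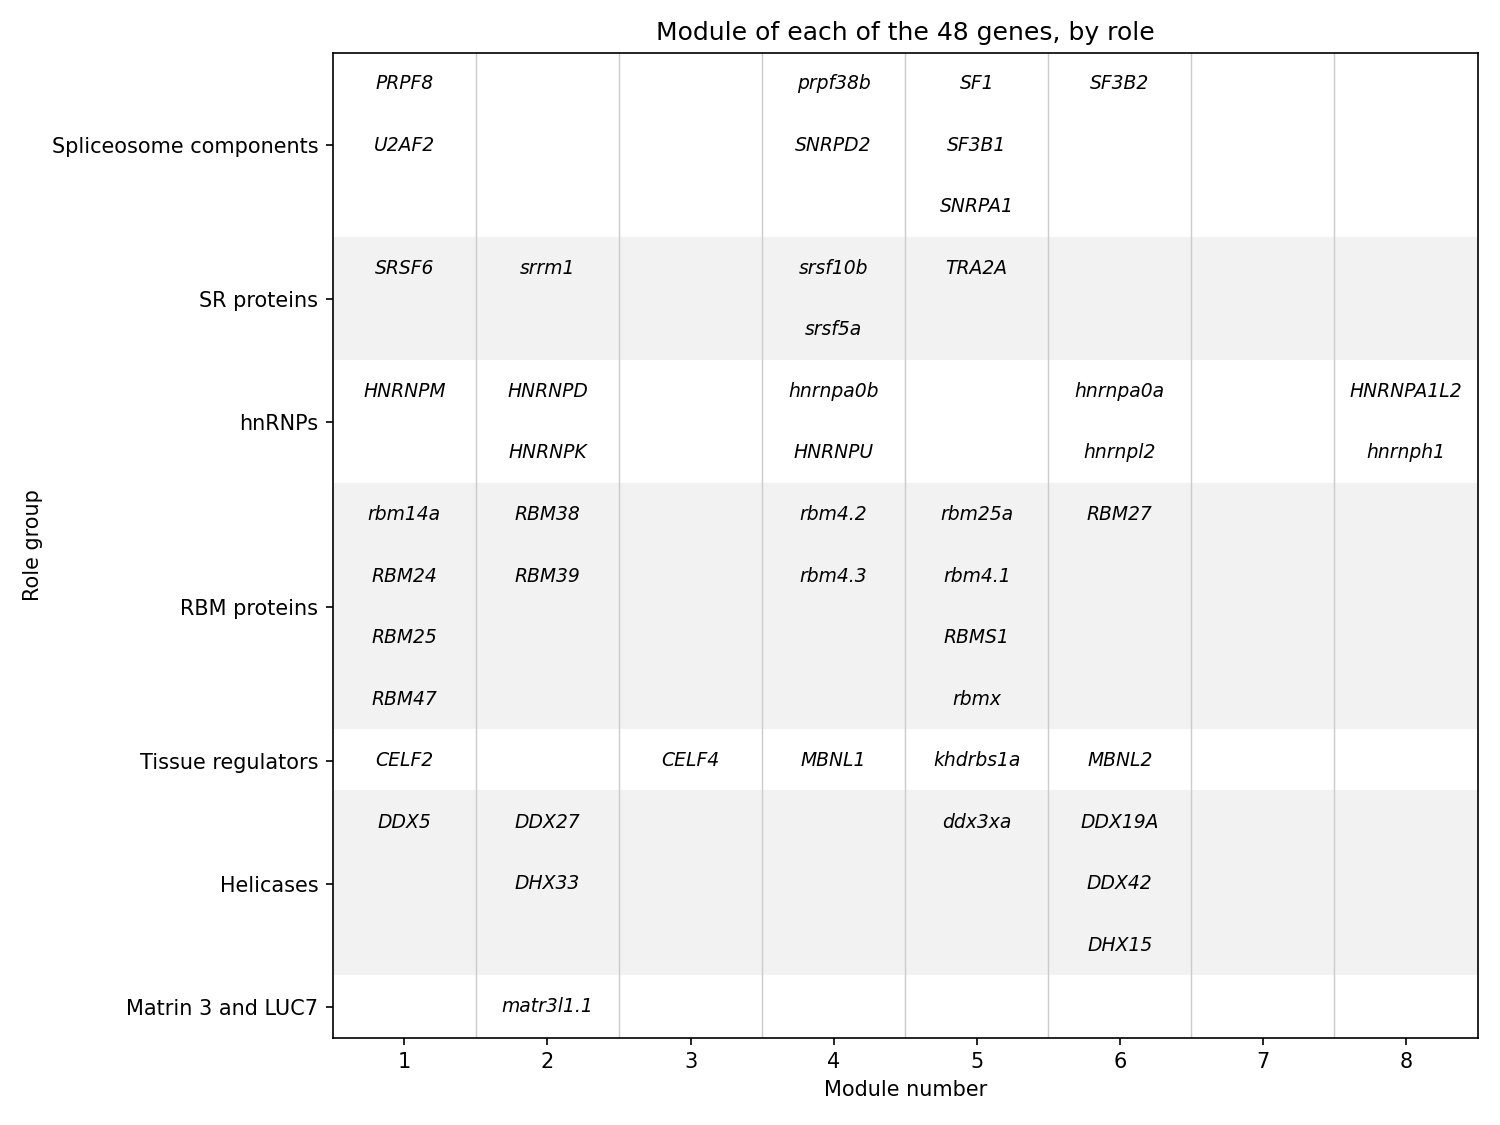
Each of the 48 genes placed in the column of its module, with role groups in rows; spelling is that of the name table and order within a cell is alphabetical. The spliceosome components stand in 4 columns, with SF1, SF3B1 and SNRPA1 in that of module 5. Genes named hnrnp stand at most 2 to a column, and the module 7 column is empty.

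Over all families, 207 genes of the name table have a symbol that the rule takes, and 48 of them (23.2%) lay in a module, beside 12.5% of all 29201 genes of the name table. No source used here lists the genes detected in these cells. Neither this share nor those of the families above could therefore be set against detected genes alone. The share by family ran from 0 of 5 for rbfox and 0 of 2 for luc7 to 2 of 3 for mbnl and 1 of 1 for sf1. The larger families lay between, with 13 of 47 rbm genes (27.7%), 5 of 35 ddx genes (14.3%), 3 of 18 srsf genes (16.7%) and 2 of 17 dhx genes (11.8%). The ddx and dhx shares were near that of the whole name table.

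**Figure D3:**
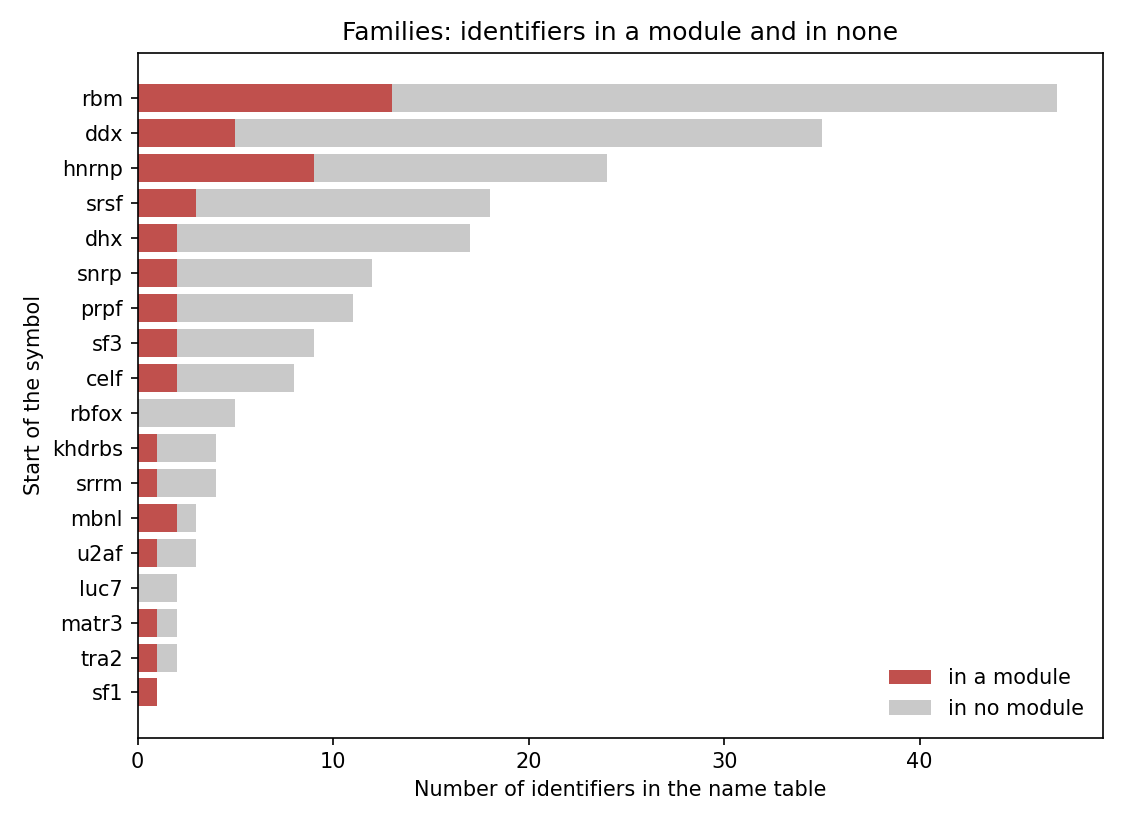
Number of identifiers in the name table whose symbol starts as shown on the vertical axis, split into those in a module (red) and those in none (grey). The rbm family has the most in a module, 13 of 47, and rbfox and luc7 have no red part.

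Zebrafish keep many genes as a and b copies from an ancient duplication of the genome. Only 1 pair of the 48 had both letters in the modules, hnrnpa0a (ENSDARG00000089302) in module 6 and hnrnpa0b (ENSDARG00000036162) in module 4, and it was split. Over all module genes there were 64 pairs named with a and b, of which 24 (37.5%, 25.7% to 50.5%) shared a module. Case was ignored, and A and B genes that other vertebrates also have were not removed from these. A second pair appears when the final letter is ignored. RBM25 (ENSDARG00000006395) lay in module 1 and rbm25a (ENSDARG00000039266) in module 5, and the RefSeq table lists an rbm25a and an rbm25b. Both pairs of the 48 were therefore split, beside 64 of 203 sets sharing a module (31.5%, 25.2% to 38.4%) among all module genes matched in this way. Those sets can also hold the same symbol on 2 identifiers, or more than 2 identifiers, so unlike sets are compared. With 2 pairs, the interval of the share in the same module runs from 0% to 84.2%, so no difference from all genes could be seen.

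More often, 1 copy was in a module and its namesake in none. Of the 48 genes' stems, 17 stood on exactly 2 identifiers of the name table. TRA2A with TRA2B and prpf38b with PRPF38A are older genes that other vertebrates also have, and were left aside. In 13 of the other 15 just 1 identifier was in a module. Both were in modules in 2 of 15 (13.3%, 1.66% to 40.5%, or 11.8% with those older genes), beside 183 of 1117 stems (16.4%, 14.3% to 18.7%) among all module genes, from which older genes were not removed. The copies named by letter were ddx3xa in module 5 with ddx3xb in none, rbm14a in module 1 with rbm14b in none, and srsf10b in module 4 with srsf10a in none. In further cases a symbol without a letter or in capitals was taken as the other copy. These were srsf5a in module 4 with SRSF5 in none and khdrbs1a in module 5 with KHDRBS1 in none. RBM39 in module 2 with rbm39b in none and RBMS1 in module 5 with rbms1b in none were the others. The symbols SRSF6, U2AF2, RBM24, HNRNPK and HNRNPU each stood on 2 identifiers, as did DDX19A when case is ignored, with 1 in a module and 1 outside. For 7 of the 31 genes written in capitals the RefSeq table has an a and a b gene and none without a letter. For RBM25, RBM39 and RBMS1 another identifier of the name table carries one of the letters (rbm25a, rbm39b and rbms1b). They would have the other letter if each identifier is 1 of the 2 RefSeq genes. That could not be checked, because no entry of the RefSeq table carries an Ensembl identifier. For U2AF2, SRSF6, RBM24 and HNRNPU, which copy was placed is not known. The RefSeq table lists HNRNPK and DDX19A without a further letter, and which of the 2 identifiers each entry stands for is not known either. No source used here says how reads shared by near-identical copies were assigned, so these placements are uncertain.

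In the order of protein-coding genes of the RefSeq table, rbm4.3, rbm4.2, rbm4.1 and sf1 are 4 neighbours with no gene between them. The first 2 of the row, rbm4.3 (ENSDARG00000022129) and rbm4.2 (ENSDARG00000055080), lay in module 4, and the next 2, rbm4.1 (ENSDARG00000036386) and SF1, lay in module 5, so the row changed module between rbm4.2 and rbm4.1. The rbm4 genes are named after RBM4, a splicing regulator that promotes muscle-type exon choice in mouse cells, and the caution on shared reads holds for them too. Of the 40 genes that could be placed by exact symbol, no other lay directly beside another. Among the 40, the symbols HNRNPK and DDX19A each stand on 2 identifiers when case is ignored, so their place in this order is uncertain. The matrin-3-like gene matr3l1.2, the direct neighbour of matr3l1.1, lay in no module.

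The authors' annotation charts list terms for each module, with at least 2 genes and a p-value below 0.1, so a term missing from a chart may still have genes in the module. All 10 of the genes in module 5 and all 8 in module 6 stood under at least 1 listed term, as did 8 of 9 in module 4, 4 of 8 in module 2 and 3 of 10 in module 1. Of all named genes, those under a listed term came to 76.7% for module 5, 78.2% for module 6, 78.7% for module 4, 72.5% for module 2 and 77.6% for module 1, some of them under broad terms such as the nucleus. In the authors' deposited table, module 5 is the only one whose chart names the spliceosome. That KEGG pathway has 10 genes of module 5, a fold enrichment of 3.09, p = 0.00477 and adjusted p = 0.0750, in the authors' deposited table. Of the 10, 5 were from the 48 genes, SNRPA1, rbm25a, rbmx, SF3B1 and TRA2A. The 48 were chosen by names of splicing, RNA-binding and helicase families, so overlap with RNA terms follows partly from the rule. Here and in the terms below it is no separate evidence for the densities above. The other 5 were SNU13, alyref, USP39 and the heat shock genes HSPA8 and hspa1b.

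The Gene Ontology terms of the same module draw on overlapping genes. The authors' deposited table gives the spliceosomal complex 6 genes (3.95-fold, adjusted p = 0.655), 4 of them from the 48: rbmx, SF3B1, SF1 and TRA2A. It lists 7 genes for mRNA splicing via the spliceosome (3.00-fold), with SNRPA1, rbm4.1, rbmx and SF1 from the 48. For mRNA binding the authors' deposited table has 11 genes (3.27-fold, adjusted p = 0.310), 6 from the 48, and for RNA binding 25 genes (1.90-fold, adjusted p = 0.310), 8 from the 48. No RNA term of module 5 had an adjusted p below 0.05 in it.

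In module 6 the authors' deposited table gives RNA binding 28 genes, a fold enrichment of 2.41 and an adjusted p of 0.00402. From the 48 it includes DDX19A, hnrnpl2, MBNL2, DHX15, hnrnpa0a and RBM27. RNA helicase activity has 4 genes of module 6 in the authors' deposited table (4.06-fold, adjusted p = 0.829), and 3 of them were DHX15, DDX42 and DDX19A, with UPF1 of nonsense-mediated decay as the fourth. The nucleus includes 6 of the 8, beside 131 of the 318 genes counted in the chart of module 6 (adjusted p = 1.71e-08 in the authors' deposited table). In module 4 the same term takes 6 of the 9, beside 98 of 337 genes (adjusted p = 0.955 in the authors' deposited table). In module 5 it takes 7 of the 10, beside 108 of 353 genes (adjusted p = 0.338 in the authors' deposited table).

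Module 7 holds none of the 48, and so none of its terms could list them. The authors' deposited table gives RNA binding in module 7 43 genes, a 4.13-fold enrichment and an adjusted p of 1.10e-12. Of those 43, 25 had the symbol of a cytosolic ribosomal protein. In module 1, RBM24 stood under heart looping, somitogenesis and circulatory system development and under no RNA term. In module 2, HNRNPK and HNRNPD shared the term regulation of gene expression (7 genes, 2.44-fold, adjusted p = 1 in the authors' deposited table).

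**Figure D4:**
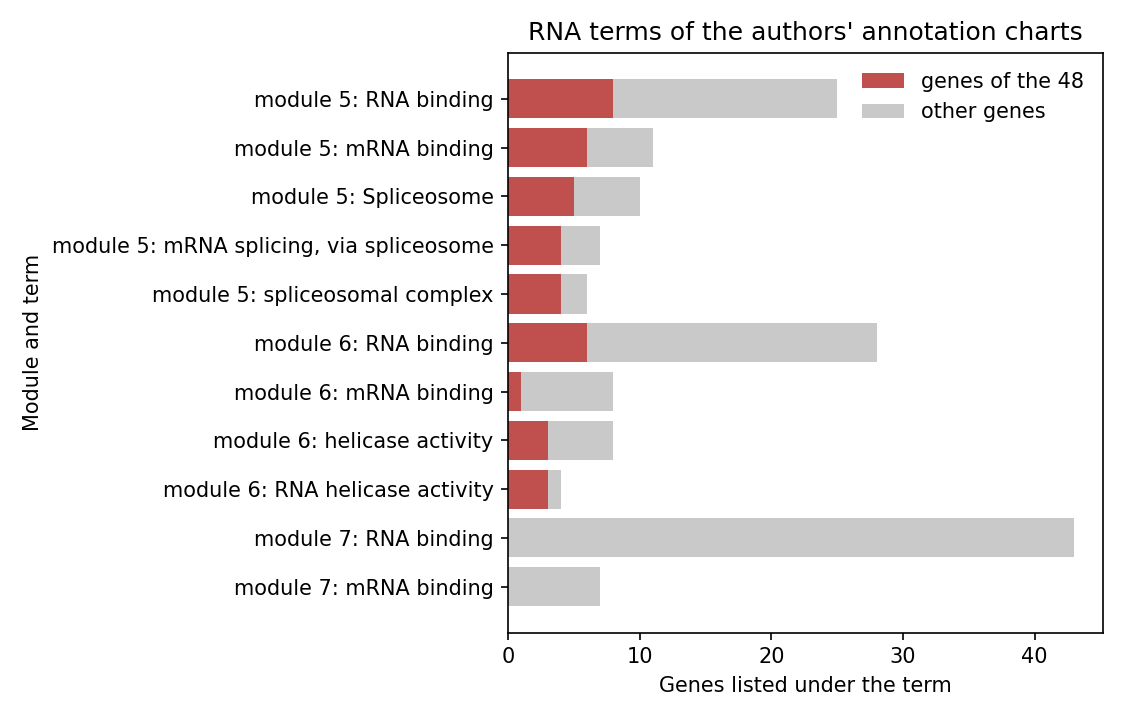
Genes listed under RNA terms in the authors' charts of modules 5, 6 and 7, split into those of the 48 (red) and other genes (grey). The spliceosome bar of module 5 is red for 5 of its 10 genes, and the module 7 bars can have no red part because none of the 48 lay there.

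Genes of RNA processing outside the naming rule were followed in 6 lists of 198 symbols. They found 220 genes in the name table and 43 in a module (19.5%, beside 12.5% of all genes of the name table). Module 6 held 13 of them, module 5 held 12, module 1 held 9 and module 2 held 5. Modules 4 and 7 had 2 each, and modules 3 and 8 had none. Of all named module genes, 10.2% lay in module 6, 11% in module 5, 33.4% in module 1 and 14% in module 2. Module 4 held 10.8% of them, module 7 held 9.23%, module 3 held 7.75% and module 8 held 3.59%. Where the 48 genes were about as dense in module 4 as in module 6, the genes on these lists were few in module 4. The lists do not hold every such gene, so these counts depend on the symbols chosen. For example, syncripl and MEX3B of module 4 and STAU1 of module 7 stand in the charts but not on the lists. The list of other RNA-binding regulators had 22 of 82 in a module (26.8%). Of these 8 lay in module 6, including elavl1a, a stabiliser of AU-rich mRNAs, FMR1 and its relative FXR1, which control translation, and FUBP1. Module 5 held 5, among them sfpq, whose paraspeckle partner NONO was in module 2, and SYNCRIP. The 2 in module 7 were YBX1, a cold shock domain protein that packages mRNA, and RBPMS2, a regulator of muscle splicing.

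Of the list of other core parts of the spliceosome, 5 of 73 genes lay in a module (6.85%, beside 12.5% of the whole name table). The list does not hold every core part, and SNU13 of module 5, named above from the chart, is not on it. The 5 were SNRNP200, the helicase that unwinds U4 from U6, and GEMIN4 of the snRNP assembly complex in module 1, acin1a in module 4, and gpkow and USP39 in module 5. PRPF8 and SNRNP200, which work in contact in the same particle, both lay in module 1. That module holds 33.4% of all named module genes. Of 23 genes of the exon junction complex, mRNA export and nonsense-mediated decay, 8 lay in a module (34.8%), 3 each in modules 5 and 6. Those of module 5 were alyref and zc3h11a of export and the decay kinase SMG1, and those of module 6 were UPF1, NCBP3 and SARNP. The 4 kinases of SR proteins that were placed each lay in a different module, a spread that was not tested. Of these clk4a belonged to module 1 and CLK2 to module 4, while CLK1 was found in module 5 and DYRK1A in module 6. Of the 3′ end processing genes, CPSF6 was in module 5 and wdr33 in module 6. Of the m6A list, YTHDF2, a reader, was in module 1 and ZC3H13, a part of the writer complex, in module 2. This list is not complete either, and METTL16, under RNA binding in the chart of module 6, is not on it.

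Within the deposited lists, identifiers run upwards in several stretches, and no source used here says what the stretches mean. Of the 48 genes, 43 (89.6%, 77.3% to 96.5%) stood in the first stretch of their module, beside 3231 of all 4449 identifiers (72.6%). The 5 in later stretches were RBM24, RBM38, srsf10b, rbm4.1 and DDX42. All 48 genes have a symbol by the naming rule, but 798 of the 4449 identifiers have none, so unlike sets are compared here. The share in the first stretch among identifiers with a symbol was not worked out. Whether the gap reflects only having a symbol was not tested.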

How the data were processed

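Plates were grouped by their labels into 4 hmga1a mutant and 3 wildtype plates. The deposited module lists hold Ensembl gene identifiers only, so the planned exact permutation test between genotypes was not made and depth is unknown. In the annotation charts, the counts are the authors' numbers of genes per term, per the file headers, and the percent is the authors' share of a module's genes in the term. The authors also deposited each p-value, its adjusted form and the fold enrichment (a ratio of shares). The submitters' processing notes name Seurat without a role; the sources used here state no aligner, build or filter.

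Symbols came from a name table of 29201 genes. Members were counted per module, with exact Clopper-Pearson 95% intervals (SciPy 1.17.1; Python 3.11.15, pandas 2.3.3, matplotlib 3.10.9), and the counting was tested on simulated lists. Every member is named. The members and lists were chosen with earlier results of these data known. The RefSeq table (GRCz12tu) gave copies and gene order only. Sequences were not used here.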

Additional observations from a re-analysis of the deposited data

How the results depend on the processing

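Counting copies as 1 gene left 46 genes, the first stretch of identifiers left 43, and leaving out the helicases left 41. Adding the other RNA-processing genes, from lists that are not complete, raised the number to 91. The share in module 4 then fell to 12.1%, against 18.8% as reported. With those genes module 5 held 24.2%, module 6 held 23.1%, module 1 held 20.9%, module 2 held 14.3%, modules 7 and 8 held 2.20% each, and module 3 held 1 gene of 91. In the last 3 of these settings the share in every module stayed within the wide interval of the reported share. Counting copies as 1 gene per module could not move a share, since both pairs were split between modules, and the split of the a and b pairs was unchanged in the 2 settings tried for it. Symbols from the RefSeq table, alone or with the name table, were not run because no entry of it carries an Ensembl identifier. No paired analysis was possible because the module lists hold no values per plate. The 798 identifiers without a symbol limit all counts.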
